A study of Homo sapiens with 8 samples.

Results

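Collagen, laminin and integrin genes encode the fibres and networks outside the cell, the sheet that underlies epithelium, and the receptors that bind both. They were chosen by gene symbol from the deposited table: collagen chains (COL, number, A, number), laminin chains (LAMA, LAMB or LAMC with a number) and numbered integrin subunits (ITGA or ITGB), leaving out ITGB6, whose RPKM averaged 0.5 or more across all 8 libraries. RPKM is a read count scaled to the length of the gene model and to the size of the library. The table of 52576 genes held 73 genes of these names, of which 36 passed the mean, 14 of 43 collagens, 9 of 12 laminins and 13 of 18 integrins. The lowest gene inside that limit was COL27A1, at a mean of 0.568 RPKM, and the highest outside was COL1A2, at 0.301 RPKM. Of the 37 genes outside, 12 were at 0 in every library. ITGAV, which has a letter in place of a number, lies outside the name pattern.

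RNA came from the established lung adenocarcinoma line NCI-H2009, of human origin, in 8 libraries of 4 groups with 2 libraries each. All cells carried dCas9-KRAB, a Cas9 that binds without cutting, fused to a domain that recruits repressors. The groups received e3 guide 2 or e3 guide 1, which both address the enhancer called e3, a guide without a human target (non-targeting), or no guide at all. The enhancer is studied for its action on MYC, and the comparison asks what changes when it is repressed. Every group is the same line with the same fusion, so each result holds for 1 cell line, and whether the paired libraries of each group are separate cultures is not stated in the labels.

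Collagens assemble as trimers of chains, some into fibrils, some into networks or beaded filaments, and a few span the cell membrane. Laminins are trimers of an α, a β and a γ chain, and they are the main adhesive protein of the basement membrane. Integrins are pairs of an α and a β subunit in the cell membrane. The pair of ITGA3 and ITGB1 and the pair of ITGA6 and ITGB4 bind laminins, and the second of these anchors epithelial cells at hemidesmosomes.

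Inferred depths ran from 3868577 to 5744585 reads per library. MYC, the check on the labels, stood at 36.3 and 36.2 RPKM under guide 2 and 42.4 and 43.4 RPKM under guide 1, against 88.9 and 90.1 RPKM under the non-targeting guide and 74.6 and 72.7 RPKM without a guide (e3 minus both controls -1.02 ± 0.10 on log2(RPKM + 1), SE; limma, adjusted p = 0.00237). The no-guide libraries stood apart from the other 6 on the first principal component of all tested genes (-38.86 and -41.01, against 6.09 to 19.53). Each gene was tested against both controls and also against the non-targeting guide alone, because that group received a guide as the e3 groups did. Some genes are printed with only 1 of these comparisons. The summed level of 6 carcinoma epithelium markers, EPCAM, CDH1 and keratins, lay between 3037 and 3134 RPKM in the e3 libraries, 2654 and 2805 RPKM under the non-targeting guide and 3336 and 3454 RPKM without a guide. Of 9 fibroblast markers, 4 (DCN, LUM, THY1 and COL3A1) were at 0 in every library, and COL1A1, itself one of the 36, was the only one tested. Of 4 endothelial markers the 3 that the table held (KDR, VWF and CDH5) lay under 0.5 RPKM in every library. Of 4 leukocyte markers PTPRC and CD3E were at or near 0 and CD68, which other cells express too, was the one tested. CD68 had 28.4 and 31.4 RPKM under guide 2 and 31.8 and 29.6 RPKM under guide 1, against 23.7 and 21.6 RPKM under the non-targeting guide and 13.7 and 12.2 RPKM without a guide, a pattern like that of several genes below, and its part in them was not tested.

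Against both controls, 6 of the 36 genes were called higher and none lower with the e3 guides (limma, adjusted p under 0.05), while 4.28% of the 15753 genes tested were called, 2.21% higher and 2.08% lower. At an unadjusted p under 0.05, 17 of the 36 were higher, ITGB3 among them, and 1 was lower, COL13A1. The share of all genes at an unadjusted p under 0.05 was not counted, here or below, so nothing is read from such counts. COL13A1 averaged 0.341 RPKM in the e3 libraries and 1.08 RPKM in the controls. It reached the minimum for a test only through the controls, so its difference is not read as a result. The 6 were COL18A1 and COL9A2 of the collagens, LAMB3 of the laminins, and ITGA3, ITGB1 and ITGB3 of the integrins. ITGB3 reached the minimum for a test only through its e3 libraries, so its call had to be a difference of this kind and is not read as a result, which leaves 5. Against the non-targeting guide alone, 8 rose and none fell (limma, with unadjusted p under 0.05 for 17 higher, again with ITGB3, and 0 lower), while 5.35% of all genes were called, 2.59% higher and 2.76% lower. COL18A1, COL9A2, ITGA3 and ITGB1 were called again, joined by COL6A2, LAMB1, LAMB2 and ITGB4. Both comparisons share the e3 and the non-targeting libraries. Without the first or the second non-targeting library, 0 of the 36 passed against that guide (limma; 14 and 13 had an unadjusted p under 0.05), and of all genes 2 and 1 did, so the second set rests on both of them. With an estimated correlation between the libraries of a group, COL18A1, COL9A2 and ITGB1 were the 3 still called against both controls. With group means as samples 0 of the 36 were called (limma; 11 had an unadjusted p under 0.05).

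The controls also differed from each other in many of these genes. Under the non-targeting guide 10 genes were higher and 5 lower than without a guide, among 10.6% of all genes called (5.54% higher, 5.01% lower). All p-values here are set against how far these libraries scatter, a scatter that may be technical only. Over the 36 genes the median difference was 0.29 for e3 against the non-targeting guide, 0.28 against both controls and 0.07 between the controls, where the medians of all tested genes were 0.00, -0.02 and -0.02 on log2(RPKM + 1). In 13 of the 36 genes (36.1%) the group means were highest under guide 2, then guide 1, then the non-targeting guide, and lowest without a guide, an order that 7.5% of tested genes had. ITGB3, not read as a result above, is among the genes with that order. In 13 genes the non-targeting group was the lowest of the 4. The share of all tested genes with that group lowest was not counted, so nothing is read from this count.

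Between the guides 1 of the 36 genes was called, higher under guide 2, where 0.0254% of all genes, 4 of them, were called (0.019% higher and 0.00635% lower). With any one of the 4 e3 libraries left out, 0 of the 36 passed there (limma, 6 to 8 with an unadjusted p under 0.05).

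**Figure D1:**
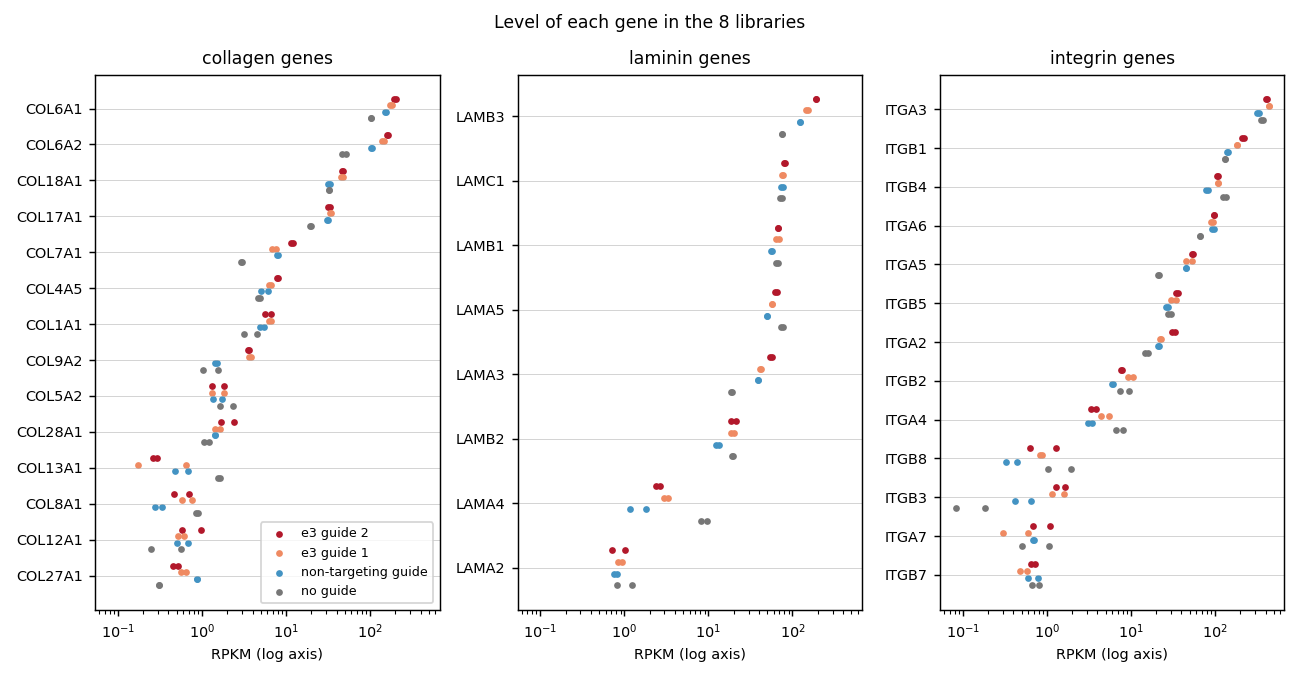
RPKM (log axis) of 35 of the 36 genes, 1 row a gene and 1 panel a family, with 2 points for each group. The points of 1 group lie close for the abundant genes at the top, such as ITGA3 at 314 to 437 RPKM, and spread at the bottom, where values fall under 1 RPKM.

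LAMB3 and LAMA3 encode the β3 and α3 chains, which are known from laminin of epithelial basement membranes. LAMB3 had 189 and 192 RPKM under guide 2 and 147 and 152 RPKM under guide 1, against 123 and 124 RPKM under the non-targeting guide and 74.9 and 75.2 RPKM without a guide. Its rise against both controls was 0.80 ± 0.19 (SE; limma, adjusted p = 0.0448), and it did not pass against the non-targeting guide (0.45 ± 0.12, limma, adjusted p = 0.0808). Leaving out any one e3 or no-guide library ended the call, with adjusted p between 0.0706 and 0.132 (limma). The groups of LAMB3 did not overlap, and guide 2 was above guide 1 by 0.35 ± 0.04 without passing (limma, adjusted p = 0.0582).

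LAMA3 had 57.3 and 53.4 RPKM under guide 2 and 42.5 and 41.4 RPKM under guide 1, against 38.6 and 39.1 RPKM under the non-targeting guide and 18.4 and 18.9 RPKM without a guide. The groups of LAMA3 had the order of LAMB3 and did not overlap. The e3 difference of LAMA3 did not pass against both controls (0.81 ± 0.26, limma, adjusted p = 0.109) or against the non-targeting guide (0.30 ± 0.14, adjusted p = 0.269). The difference between the controls passed, for LAMA3 (1.02, limma, adjusted p = 9.71e-05) as for LAMB3 (0.71, adjusted p = 6.33e-05).

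Promoters are shown for LAMA3 and LAMB3, the only genes of the 26 with an entry that held the AP-1 letters given below. Both were called between the controls, as were COL6A2, COL7A1, COL17A1 and ITGA5, whose promoters held no match. The RefSeq table (GRCh38.p14) held promoters for 26 of the 36 genes. Without an entry were, among others, COL1A1, COL5A2, COL6A1, COL8A1, ITGA3, ITGA7, ITGB2, ITGB3 and ITGB4. LAMC1 is shown beside LAMA3 and LAMB3 as a laminin gene with no call, though its group means had the same order. Each sequence is the 250 bases before an annotated start, 5′ to 3′ on the strand of the gene, and capitals mark TGANTCA, the letters bound by AP-1 factors. LAMA3 lies at chr18:23872770-23873019 (plus strand), LAMB3 at chr1:209651375-209651624 (minus strand, 1 of its 3 annotated starts) and LAMC1 at chr1:183023170-183023419 (plus strand).
LAMA3: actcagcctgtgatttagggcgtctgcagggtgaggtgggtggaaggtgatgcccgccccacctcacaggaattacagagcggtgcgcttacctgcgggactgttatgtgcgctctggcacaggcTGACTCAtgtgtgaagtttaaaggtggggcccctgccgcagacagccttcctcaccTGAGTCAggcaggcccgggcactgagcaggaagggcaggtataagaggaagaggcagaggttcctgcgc
LAMB3: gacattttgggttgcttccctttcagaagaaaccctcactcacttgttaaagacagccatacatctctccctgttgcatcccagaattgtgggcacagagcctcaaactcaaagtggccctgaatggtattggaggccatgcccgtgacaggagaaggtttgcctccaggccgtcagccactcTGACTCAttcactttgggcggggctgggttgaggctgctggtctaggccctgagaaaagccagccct
LAMC1: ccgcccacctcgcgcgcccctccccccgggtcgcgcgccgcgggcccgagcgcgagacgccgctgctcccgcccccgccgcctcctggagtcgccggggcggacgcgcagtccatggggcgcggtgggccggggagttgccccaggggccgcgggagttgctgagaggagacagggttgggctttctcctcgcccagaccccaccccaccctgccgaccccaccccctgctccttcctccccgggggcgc

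LAMA3 held 2 matches, TGACTCA at -125 to -119 and TGAGTCA at -69 to -63 from the start, and LAMB3 held 1, TGACTCA at -67 to -61. The LAMB3 start shown was picked for its match, and the other annotated starts of LAMB3 held none. Of the 33 member promoters 6.06% had a match on either strand, and of all 35116 promoters of that length in the RefSeq collection a match stood in 6.57%, with more than 1 match in 0.402%. CACGTG, the E-box bound by MYC and its partner, was in 1 of the 33 (ITGA6) and in 6.34% of all, and GGAATG, bound by TEAD factors, was in 4 of the 33 (12.1%) and in 11.9% of all. TGANTCA and CACGTG read the same on both strands, GGAATG was searched in both, and no gene of the 26 held more than 1 of the 3 motifs. The AP-1 and TEAD shares are near those of all promoters, and the E-box share of 3.03% rests on 1 promoter. A match is a description of the letters.

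LAMC1, which encodes the γ1 chain of most other laminins, had overlapping groups. It had 78.5 and 81.0 RPKM under guide 2, 77.5 and 75.6 RPKM under guide 1, 72.8 and 78.1 RPKM under the non-targeting guide and 75.1 and 72.0 RPKM without a guide. None of the 4 comparisons passed for LAMC1, whose differences ran from 0.04 between the controls to 0.07 for e3 against both controls on log2(RPKM + 1).

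LAMA5, LAMB1 and LAMB2, which pair with LAMC1 in laminins of many epithelia, followed another pattern, with the non-targeting group lowest. LAMB1 had 67.2 and 67.4 RPKM under guide 2, 63.8 and 68.9 RPKM under guide 1, 55.6 and 57.1 RPKM under the non-targeting guide and 66.6 and 63.2 RPKM without a guide. It rose against the non-targeting guide (0.24 ± 0.05, SE; limma, adjusted p = 0.0473), a call that was lost when any one of the 6 libraries was left out. LAMB2 had 21.4 and 18.7 RPKM under guide 2 and 19.9 and 18.8 RPKM under guide 1, against 12.4 and 13.4 RPKM under the non-targeting guide and 19.2 and 19.8 RPKM without a guide. The e3 libraries of LAMB2 lay above the non-targeting ones (0.58 ± 0.09, limma, adjusted p = 0.0176) and overlapped those without a guide. Against both controls neither LAMB1 nor LAMB2 passed (0.14 and 0.29, limma, adjusted p = 0.287 and 0.294).

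LAMA5, an α chain, had 61.2 and 64.9 RPKM under guide 2, 56.9 and 57.0 RPKM under guide 1, 49.4 and 49.1 RPKM under the non-targeting guide and 72.7 and 77.1 RPKM without a guide, so the e3 libraries lay between the controls. The ratio of LAMA3 to LAMA5 was 0.936 and 0.824 under guide 2, 0.748 and 0.726 under guide 1, 0.782 and 0.796 under the non-targeting guide and 0.253 and 0.245 without a guide. Between the controls LAMA5 (-0.59), LAMB2 (-0.56) and LAMA4 (-1.99) were lower under the non-targeting guide (limma, adjusted p = 0.000774, 0.00959 and 0.000557). The LAMB2 call was lost without the first non-targeting or the second no-guide library (adjusted p = 0.0693 and 0.0600). LAMA4, the α chain of a laminin best known from blood vessel walls, had the largest difference between the controls of the 36 genes. It had 2.38 and 2.67 RPKM under guide 2 and 3.27 and 2.92 RPKM under guide 1, against 1.82 and 1.16 RPKM under the non-targeting guide and 9.52 and 8.10 RPKM without a guide. Each e3 library of LAMA4 was above the non-targeting and below the no-guide libraries. LAMA2, an α chain known from muscle, lay between 0.722 and 1.24 RPKM with no call.

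The summed carcinoma epithelium markers had the same low point, and 4 of the 6, all keratins, were called lower under the non-targeting guide than without one, beside 5.01% of all genes. EPCAM did not share it, at 215 and 211 RPKM under guide 2, 229 and 234 RPKM under guide 1, 254 and 251 RPKM under the non-targeting guide and 252 and 244 RPKM without a guide. KRT8 and KRT18 overlapped between guide 2 and the non-targeting guide. CDH1 differed between the controls by -0.07 without a call. KRT7, a keratin of simple epithelium, had 534 and 518 RPKM under guide 2 and 493 and 492 RPKM under guide 1, against 367 and 381 RPKM under the non-targeting guide and 473 and 500.0 RPKM without a guide. The part of cell state in the laminin and integrin values was not tested. In bulk RNA, more RNA in each cell and more cells that make it cannot be told apart.

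**Figure D2:**
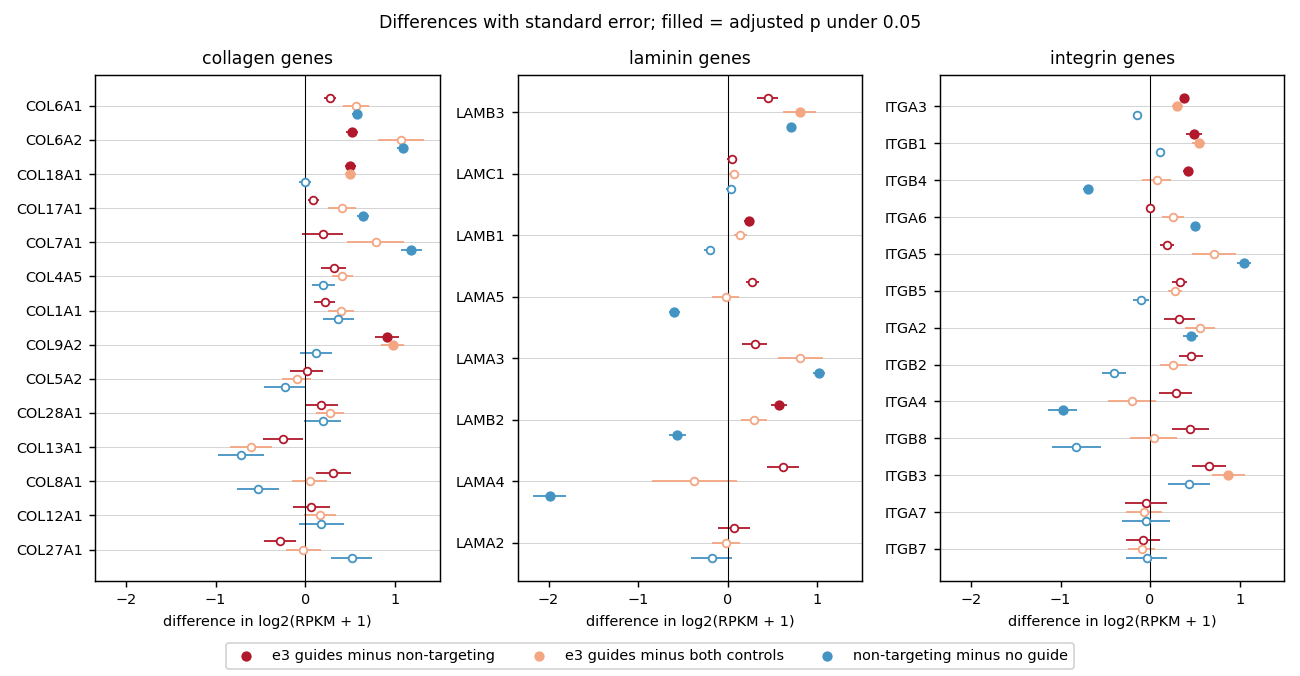
Difference in log2(RPKM + 1) of 35 of the 36 genes with its standard error, for the e3 guides minus the non-targeting guide, the e3 guides minus both controls and the non-targeting guide minus no guide, filled where the adjusted p was under 0.05. All filled e3 points lie to the right of 0, whereas filled points of the controls lie on both sides, from LAMA4 at -1.99 to COL7A1 at 1.19.

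Among the collagens COL6A1 and COL6A2 led, neighbours on chromosome 21 that encode 2 of the chains of collagen VI, a beaded filament near basement membranes. COL6A2 had 157 and 162 RPKM under guide 2 and 145 and 140.3 RPKM under guide 1, against 103 and 106 RPKM under the non-targeting guide and 45.8 and 51.7 RPKM without a guide. It rose against the non-targeting guide (0.52 ± 0.07, SE; limma, adjusted p = 0.0114) and narrowly missed the threshold against both controls (1.07 ± 0.26, limma, adjusted p = 0.0504). COL6A2 passed that second comparison with a minimum mean of 1 RPKM, with quantile normalization and without either non-targeting library.

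COL6A1 had 193 and 201 RPKM under guide 2 and 182 and 173 RPKM under guide 1, against 151 and 157 RPKM under the non-targeting guide and 102 and 104 RPKM without a guide. All e3 libraries were above all controls, but neither comparison passed (0.28, adjusted p = 0.0563, against the non-targeting guide, and 0.57, adjusted p = 0.0583, against both; limma). Between the controls both genes were called, COL6A2 by 1.09 and COL6A1 by 0.57 (limma, adjusted p = 6.3e-05 and 0.000356). Their steps were unequal, and the ratio of COL6A1 to COL6A2 was 1.23 and 1.24 under guide 2, 1.26 and 1.23 under guide 1, 1.46 and 1.47 under the non-targeting guide and 2.23 and 2.00 without a guide. COL6A3, which encodes the long chain found in the standard trimer, lay between 0.0516 and 0.158 RPKM, under the mean required here.

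**Figure D3:**
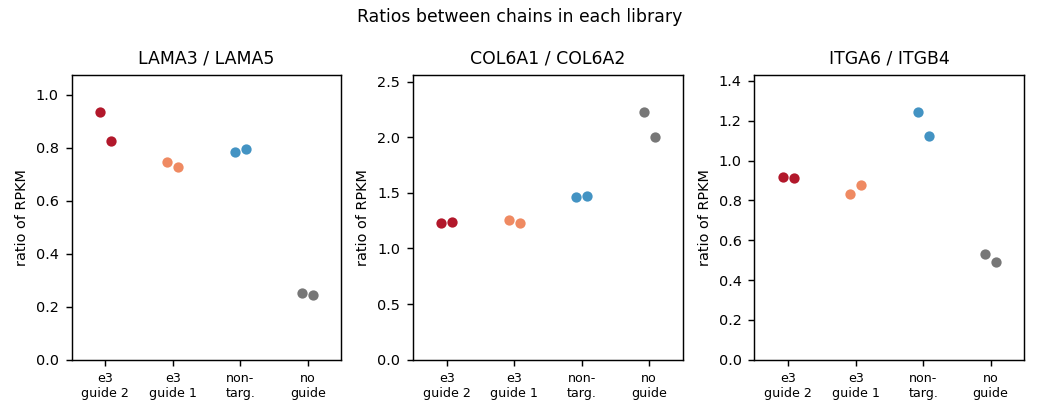
Ratio of RPKM between the named genes in each of the 8 libraries, 2 points a group, axes starting at 0. LAMA3 over LAMA5 was lowest without a guide, COL6A1 over COL6A2 was highest there, and ITGA6 over ITGB4 was highest under the non-targeting guide.

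COL18A1, a basement membrane collagen whose end is cut off as endostatin, had 46.7 and 47.8 RPKM under guide 2 and 44.8 and 48.2 RPKM under guide 1, against 33.6 and 31.8 RPKM under the non-targeting guide and 32.6 and 32.8 RPKM without a guide. The control groups overlapped and every e3 library was above them. It rose by 0.51 ± 0.06 against both controls (46.9 ± 1.51 RPKM for the e3 libraries and 32.7 ± 0.778 RPKM for the controls, SD, n = 4 each; limma, adjusted p = 0.00493) and by 0.51 ± 0.06 against the non-targeting guide (limma, adjusted p = 0.00977). Its difference between the controls was 0.00 ± 0.07 (SE). Antisense genes named for COL18A1 lay at or under 0.135 RPKM, few beside these if strand was not used in counting.

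COL9A2, a chain of collagen IX known from the surface of cartilage fibrils, had 3.56 and 3.65 RPKM under guide 2 and 3.66 and 3.82 RPKM under guide 1, against 1.52 and 1.44 RPKM under the non-targeting guide and 1.03 and 1.55 RPKM without a guide. It showed the same plain split into e3 libraries and controls at a low level, with 52 to 72 reads in each e3 library and 17 to 25 in each control. It rose by 0.98 ± 0.13 against both controls, to 2.65 times their mean RPKM (limma, adjusted p = 0.00715), and by 0.91 ± 0.13 against the non-targeting guide (limma, adjusted p = 0.0143).

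COL17A1, a collagen that spans the membrane at hemidesmosomes, had 31.8 and 33.2 RPKM under guide 2 and 34.6 and 33.0 RPKM under guide 1, against 31.0 and 31.2 RPKM under the non-targeting guide and 19.5 and 19.6 RPKM without a guide. Its one call was between the controls (0.64 ± 0.07, SE; limma, adjusted p = 0.00113), and against the non-targeting guide the e3 difference was 0.09 ± 0.06 (limma, adjusted p = 0.484). COL7A1, the collagen of anchoring fibrils, had 12.1 and 11.6 RPKM under guide 2 and 6.77 and 7.67 RPKM under guide 1, against 7.85 and 8.12 RPKM under the non-targeting guide and 2.93 and 2.96 RPKM without a guide. Guide 1 and the non-targeting guide were near each other for COL7A1 and guide 2 lay above both, a difference between the guides of 0.65 ± 0.12 that did not pass (limma, adjusted p = 0.130). Between the controls COL7A1 was higher by 1.19 (limma, adjusted p = 0.000753).

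The summed fibroblast markers, mostly COL1A1, lay between 6.46 and 7.40 RPKM in the e3 libraries, 5.21 and 5.83 RPKM under the non-targeting guide and 3.56 and 4.66 RPKM without a guide. COL1A1 is itself 1 of the 36, so this sum is not a measure apart from the collagen values. PDGFRA and PDGFRB lay at or under 0.213 RPKM in every library. The part of cell type in the collagen values was not tested. The other collagens were not called in any of the 4 comparisons. COL4A5, a network chain of basement membranes, ranged from 4.60 to 8.10 RPKM and COL1A1, of fibrillar collagen I, from 3.18 to 6.68 RPKM, each with all e3 libraries above all controls. Of all tested genes 7.07% had e3 libraries wholly above the controls and 6.92% wholly below, beside 16 of the 36 genes above and 0 below. ITGB3, which reached the minimum for a test only through its e3 libraries, is among the 16. COL5A2 and COL28A1 averaged 1.67 and 1.53 RPKM. COL13A1, COL8A1, COL12A1 and COL27A1 lay under 1 RPKM on average, and COL13A1 rested on 3 to 31 reads in a library. COL27A1 was the one gene of the 36 whose e3 libraries (0.515 and 0.455 and 0.647 and 0.560 RPKM) lay wholly below the non-targeting ones (0.867 and 0.882 RPKM), without a call (limma, adjusted p = 0.456). COL27A1 reached the minimum for a test only with the non-targeting libraries, so this is not read as a result. Against the non-targeting guide 24 of the 36 lay wholly above, again with ITGB3, where 15.2% of all genes lay above and 15.2% below.

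ITGA3 and ITGB1, the subunits of a laminin receptor, were the most abundant integrin genes and rose in both comparisons. ITGA3 had 408 and 414 RPKM under guide 2 and 435 and 437 RPKM under guide 1, against 314 and 336 RPKM under the non-targeting guide and 349.9 and 372 RPKM without a guide. It rose by 0.31 ± 0.06 against both controls (424 ± 14.4 RPKM for the e3 libraries and 343 ± 24.2 RPKM for the controls, SD, n = 4 each; limma, adjusted p = 0.0273) and by 0.38 ± 0.05 against the non-targeting guide (limma, adjusted p = 0.0114). The first call was lost without any one e3 library, the first no-guide or the second non-targeting library (limma, adjusted p between 0.0533 and 0.0744).

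ITGB1, the β subunit shared by many integrins, had 211 and 223 RPKM under guide 2 and 183 and 184 RPKM under guide 1, against 144 and 139.9 RPKM under the non-targeting guide and 133 and 130.4 RPKM without a guide. The libraries of both e3 guides lay above all controls. It rose by 0.54 ± 0.08 against both controls (200.4 ± 19.8 RPKM for the e3 libraries and 137 ± 6.30 RPKM for the controls, SD, n = 4 each; limma, adjusted p = 0.00828) and by 0.49 ± 0.09 against the non-targeting guide (limma, adjusted p = 0.0257). The second call was lost also without either library of guide 2 (limma, adjusted p = 0.0761 and 0.0514).

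ITGB4 and ITGA6, the subunits of the hemidesmosome integrin, had different patterns. ITGB4 had 106 and 107 RPKM under guide 2 and 108 and 108 RPKM under guide 1, against 78.2 and 82.3 RPKM under the non-targeting guide and 124 and 137 RPKM without a guide. It rose against the non-targeting guide (0.42 ± 0.05, SE; limma, adjusted p = 0.00910), and the non-targeting libraries were lower than those without a guide (-0.69 ± 0.06, limma, adjusted p = 0.000376). Its e3 libraries lay between the controls, and against both the difference was 0.07 ± 0.17 (limma, adjusted p = 0.848).

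ITGA6 had 97.4 and 97.9 RPKM under guide 2 and 90.4 and 95.1 RPKM under guide 1, against 97.3 and 92.5 RPKM under the non-targeting guide and 65.8 and 67.2 RPKM without a guide. The 6 libraries with a guide lay close together for ITGA6, those of guide 1 and the non-targeting guide overlapping, and the call was between the controls (0.51 ± 0.05, SE; limma, adjusted p = 0.000984). The ratio of ITGA6 to ITGB4 was 0.919 and 0.911 under guide 2, 0.834 and 0.878 under guide 1, 1.25 and 1.12 under the non-targeting guide and 0.531 and 0.492 without a guide.

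ITGA5, of the fibronectin receptor, had 55.1 and 53.5 RPKM under guide 2 and 52.7 and 45.7 RPKM under guide 1, against 45.4 and 44.8 RPKM under the non-targeting guide and 21.5 and 21.1 RPKM without a guide. Most of its range lay between the controls, which differed by 1.05 ± 0.08 (SE; limma, adjusted p = 0.000204), and the e3 guides did not pass against the non-targeting guide (0.19 ± 0.08, limma, adjusted p = 0.246). ITGA2, of a collagen receptor, had 30.6 and 33.9 RPKM under guide 2 and 22.3 and 23.1 RPKM under guide 1, against 21.5 and 21.2 RPKM under the non-targeting guide and 15.8 and 14.9 RPKM without a guide. Its groups did not overlap, and its call was between the controls (0.45, limma, adjusted p = 0.0121), lost without either non-targeting library or the second no-guide library (adjusted p between 0.0668 and 0.0726).

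ITGB3, a partner of ITGAV, was low everywhere. It had 1.28 and 1.63 RPKM under guide 2 and 1.16 and 1.60 RPKM under guide 1, against 0.416 and 0.653 RPKM under the non-targeting guide and 0.0828 and 0.184 RPKM without a guide. These values rest on 13 to 19 reads in an e3 library, 5 and 8 under the non-targeting guide and 1 and 2 without a guide. The difference of ITGB3 was 0.87 ± 0.19 against both controls (SE; limma, adjusted p = 0.0351). It did not pass against the non-targeting guide (0.66 ± 0.19, adjusted p = 0.0973), and had an adjusted p of 0.0545 to 0.106 in the 7 fits without one library in which the call was lost. Its mean was 1.42 RPKM in the e3 libraries and 0.334 RPKM in the controls, under the minimum of 0.5 RPKM, so the test is given as a description only.

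ITGA4, known from white blood cells and from binding to fibronectin, had 3.37 and 3.81 RPKM under guide 2 and 5.52 and 4.39 RPKM under guide 1, against 3.49 and 3.07 RPKM under the non-targeting guide and 8.16 and 6.72 RPKM without a guide. It was lower under the non-targeting guide than without one (-0.98 ± 0.16, SE; limma, adjusted p = 0.00873), and this was lost without the second non-targeting or the first no-guide library (adjusted p = 0.0658 and 0.0648). ITGB5 ranged from 26.0 to 36.4 RPKM and ITGB2 from 5.98 to 10.5 RPKM without a call, and ITGB8, ITGA7 and ITGB7 averaged under 1 RPKM. Outside the 36, ITGAV rose by 0.91 and ITGB6 by 1.77 against both controls (limma, adjusted p = 0.0171 and 0.00975). Against the non-targeting guide the rises were 0.61 and 1.27 (limma, adjusted p = 0.0257 and 0.00977). ITGAV and ITGB6 were also higher under the non-targeting guide than without one (0.59 and 1.00, limma, adjusted p = 0.000955 and 0.000396).

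Genes that fold and crosslink collagen chains moved upward in part. Of 24 tested, 5 rose and 19 did not pass against both controls (median 0.36), and 5 rose against the non-targeting guide (median 0.15). Of all tested genes 2.21% were called higher against both controls and 2.59% against the non-targeting guide, with medians of -0.02 and 0.00. BMP1, a protease that trims procollagens, rose by 0.86, LOXL2, a crosslinking lysyl oxidase, by 0.92, GLT25D1, a collagen galactosyltransferase, by 0.41 and P4HB, a subunit of prolyl hydroxylase, by 0.41 against both controls (limma, adjusted p = 0.00849, 0.0190, 0.0146 and 0.0225). LOXL2 stood at 51.5 and 53.8 RPKM under guide 2 and 57.6 and 58.8 RPKM under guide 1, against 34.1 and 38.7 RPKM under the non-targeting guide and 21.0 and 24.5 RPKM without a guide. Of those 24 genes 9 were higher and 1 lower under the non-targeting guide than in the no-guide group, beside 5.54% of all genes higher and 5.01% lower.

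Of 9 tested partners in the basement membrane, 4 rose and 5 did not pass in each of the e3 comparisons (medians 0.31 against both controls and 0.35 against the non-targeting guide), beside 2.21% and 2.59% of all genes called higher. COL18A1 is among the 4 in both and is 1 of the 36 as well. Against both controls the 4 were COL18A1, AGRN (0.26, limma, adjusted p = 0.0223), DAG1 (0.30, adjusted p = 0.0285) and NID1 (0.56, adjusted p = 0.0473). AGRN is a laminin-binding proteoglycan, DAG1 a laminin receptor, and NID1 joins laminin to collagen IV. DAG1 and NID1 did not pass against the non-targeting guide (0.27 and 0.35, limma, adjusted p = 0.0618 and 0.117). NTN4, a laminin-related protein, rose against the non-targeting guide (0.88, limma, adjusted p = 0.00494) and did not pass against both controls (0.60, adjusted p = 0.0572). NTN4 was lower under the non-targeting guide than without one (-0.55, limma, adjusted p = 0.0191). The laminin receptor BCAM also rose against the non-targeting guide (0.43, limma, adjusted p = 0.0215). BCAM was at 36.6 and 36.0 RPKM without a guide, above every e3 library (29.7 and 30.0 and 29.3 and 32.1 RPKM).

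Of 22 tested partners of integrin tails and hemidesmosome genes, 1 rose against both controls and 3 against the non-targeting guide (medians 0.08 and 0.12). Beside 2.21% and 2.59% of all genes called higher, these few are named only as values, and nothing is read from the count. ACTN1, an actin crosslinker at adhesions, was the one called in both (0.26 and 0.29, limma, adjusted p = 0.0452 and 0.0477). TNS4, which binds integrin tails, rose by 0.46 and VCL, vinculin, by 0.40 against the non-targeting guide (limma, adjusted p = 0.00977 and 0.030). VCL was at 61.5 and 60.2 RPKM without a guide, within the range of its e3 libraries (67.3 and 68.0 and 58.5 and 60.8 RPKM). It was lower under the non-targeting guide than without one (-0.34, limma, adjusted p = 0.00653) and did not pass against both controls (0.23, adjusted p = 0.230). TNS4 stood at 44.3 and 43.0 RPKM under guide 2 and 42.8 and 42.0 RPKM under guide 1, against 31.2 and 31.0 RPKM under the non-targeting guide and 59.9 and 61.9 RPKM without a guide, the same shape as ITGB4.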

How the data were processed

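The authors deposited 1 table of RPKM values, with 1 column for each of the 8 libraries and no pooled columns. Poly(A) RNA was used, per the labels' protocols. Per the submitters' processing notes, the build was hg19 and Cufflinks was used. The aligner, the read counting, the strand setting and the annotation release are not given in the sources used here. Columns were matched to samples by name. Members and lists were chosen with earlier results of these data known.

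Genes averaging 0.5 RPKM or more (15753) were tested on the log2(RPKM + 1) scale. The tool was limma 3.58.1, run in R 4.3.3 (moderated test, variance trend, two-sided), and p-values were adjusted by Benjamini-Hochberg over all of them, with calls under 0.05. The scale understates changes of low genes. The e3 comparisons used 2 groups (8 libraries, or 6 against the non-targeting guide alone), those between controls and between guides a model of 4 groups. The procedure was tested on simulated data.

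Reads were inferred from the steps between low RPKM values, and were whole to within 0.03 reads for 99.9% of tested genes. Between 1 and 21817 reads lay behind a member's value, and no count test was run. Libraries of a group differed by a chi-square per degree of freedom of 1.91 to 2.11 over 12208 genes with at least 10 reads, so none was counted as a repeat. Written in full were members called in an e3 comparison, the 3 most abundant of each family, and up to 3 of each family with the largest called differences between controls, with some other members and partner genes named after their values were seen. For 1 of the 36 genes, which enters the counts, results are not reported here. Other settings tried were a pseudocount of 0.1, a minimum of 1 RPKM or none, median-ratio and quantile scaling, no variance trend, a replicate block, an estimated correlation within groups, group means, and leaving out each library. RefSeq tables (GRCh38.p14) gave promoters, chromosomes and neighbours.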

Additional observations from a re-analysis of the deposited data

Results flagged for a closer look

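LAMA2 had 1.24 RPKM in the first no-guide library, beside 0.749 to 0.826 RPKM in the other 3 control libraries, a gap of 0.843 of the whole range. It was the 1 value that stood this far from the rest among 72 sets of 4 libraries (36 genes, e3 libraries and controls). Chance gives about 1 in 20 sets, so 1 value among 72 sets is not more than chance would give. Each set joins 2 groups that can differ, which that rate leaves out. The value rests on 59 reads, against 35 to 39 in the other controls.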

How the results depend on the processing

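Of the 6 genes called against both controls, COL18A1, COL9A2 and ITGB1 passed in every setting tried other than group means. The count was 4 to 8 under the other pseudocount, filters, scalings and trend setting, 3 with the replicate block, 3 with an estimated correlation within groups, 0 with group means, and 3 to 7 when one library was left out. MYC kept its difference of -1.02 with group means but did not pass (limma, adjusted p = 0.433), and it ranged from -1.08 to -0.97 without one library. Against the non-targeting guide 8 genes were called, 1 without a variance trend (COL9A2) and 0 to 8 when one library was left out. Between the guides the count of 1 became 2 with quantile normalization and 0 without a variance trend (limma; 8 of the 36 had an unadjusted p under 0.05), and it was 0 whichever e3 library was left out. Between the controls 10 were higher and 5 lower, with 9 to 11 and 4 to 7 in the alternatives. No called difference changed sign. Uncalled differences changed sign 59 times over all settings and are not read. The cause of these shifts was not tested. Over all genes the e3 comparison with both controls had 675 calls, 259 with an estimated correlation, 329 with the replicate block and 153 to 523 when one library was left out, lowest without the first guide 2 library. It had 147 without a variance trend, 406 without a filter and 1 with group means. Against the non-targeting guide 842 genes were called, 26 without a variance trend, 379 without a filter, 343 with the replicate block and 1 to 598 when one library was left out. Between the controls 1663 were called, and 812 to 915 when one library was left out. Between the guides 4 were called, with 0 to 11 in the alternatives.

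The numbers in the titles did not pair the libraries: deviations of same-numbered libraries from their group means correlated at -0.037 to 0.023 over 9034 genes. The replicate block is therefore only an alternative. It left 6 genes called against the non-targeting guide and changed no call between controls or between guides. Of the 36 genes, 9 averaged under 1 RPKM, and 1 of these was called in a comparison as reported. Without a variance trend COL8A1 and COL27A1 were called between the controls (limma, adjusted p = 0.0457 and 0.0213). COL27A1 averaged 0.874 RPKM under the non-targeting guide and 0.308 RPKM without a guide. It reached the minimum for a test only with the non-targeting libraries, so its call is not read as a result.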

Other observations

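Several expressed chains had partner chains at very low levels. COL4A5 averaged 6.21 RPKM, while COL4A6, its usual neighbour and partner, averaged 0.172 RPKM, COL4A1 0.0626 RPKM and COL4A2 0.255 RPKM. COL9A3, a partner of COL9A2, averaged 0.0833 RPKM and was at 0 in 5 of the 8 libraries. COL1A2, the partner of COL1A1 in collagen I, had 0.508 and 0.596 RPKM under guide 2 and 0.503 and 0.377 RPKM under guide 1, against 0.235 and 0.115 RPKM under the non-targeting guide and 0.0778 and 0 RPKM without a guide, and was under the minimum for a test. ITGA1, of a collagen receptor, averaged 0.294 RPKM.

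ITGB2, COL18A1, COL6A1 and COL6A2 lie near each other on chromosome 21, with at most 4 steps between protein-coding neighbours in the RefSeq order. The difference between the controls was -0.40 for ITGB2, 0.00 for COL18A1, 0.57 for COL6A1 and 1.09 for COL6A2.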
